A study of Mus musculus with 6 samples.

Results

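The genes described here are the 9 AP-1 genes Fos, Fosb, Fosl1, Fosl2, Jun, Junb, Jund, Atf3 and Batf, taken by symbol from a deposited table of 22322 genes, which holds all 9. RNA-Seq was performed on DP (CD4+CD8+ double-positive) thymocytes sorted from untreated mice, with 3 libraries from control mice (Paxbp1fl/fl) and 3 libraries from Paxbp1 cKO mice (Paxbp1fl/fl Lckcre). All of them carry the floxed Paxbp1 alleles on a C57BL/6 background, the controls were littermates, and the mice of the study were 4 to 7 weeks old and of mixed sexes. The Lck-cre transgene deletes the floxed exon in T-lineage cells from the DN stage on, and no Cre transgene is listed for the controls, so that the presence of Cre and the loss of Paxbp1 cannot be told apart. The comparison asked whether dysregulated genes accompany the increased apoptosis of Paxbp1-deficient DP thymocytes.

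AP-1 is a family of dimeric transcription factors that bind DNA through a basic region and a leucine zipper (bZIP). Jun proteins pair with each other or with Fos, ATF or BATF proteins, while Fos proteins need a Jun partner. Many of these genes are immediate early genes, whose transcription rises within minutes of T cell receptor, mitogen-activated protein kinase (MAPK) or stress signals and whose mRNAs are short-lived. In thymocytes AP-1 acts with NFAT downstream of the T cell receptor.

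The libraries held between 18963775 and 26252248 counts, which made 1 count worth 0.0388 to 0.0520 CPM (counts scaled to library size, with TMM factors between 0.981 and 1.01). Nothing in the labels says that the libraries of a group came from separate mice, so the p-values measure the spread between these libraries. The targeted gene Paxbp1 had 40.1, 16.3 and 15.5 CPM in control libraries 1, 2 and 3. It had 38.8, 47.1 and 49.6 CPM in those labelled cKO, so that the groups overlapped (log2 fold change 0.92, SE 0.33, adjusted p by edgeR = 0.0977). The counts behind these values were 318 to 774 and 851 to 1075. These are counts over the whole gene and 1 floxed exon is a small part of it, so they do not check the genotype, and every direction below rests on the labels. DP markers were present in every library, with 10 of 10 listed genes tested. Of these, 4 were lower in the libraries labelled cKO (edgeR adjusted p below 0.05), as were 5.89% of all genes tested. Rag1 was among them (log2 fold change -0.85, adjusted p by edgeR = 0.00923). In such bulk samples, fewer cells of a type and less RNA per cell cannot be told apart. No coordinate is given in the deposited table, and positions are from GENCODE M21 on GRCm38.

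Promoter sequences are shown for 5 members with a CRE-type or TRE-type element before the start site, since elements of this kind are known to take part in the induction of Fos and Jun by kinase and stress signals. RefSeq (GRCm38.p6) gave a window of 250 bases before and 50 after the start for 8 of the 9 members, not for Fosl1. The 120 bases before the RefSeq start are printed 5′ to 3′, and capitals mark the CRE core TGACG (or CGTCA on the other strand) and, in Jun, the TRE variant TGACATCA.
Fos, chr12:85473770-85473889, plus strand: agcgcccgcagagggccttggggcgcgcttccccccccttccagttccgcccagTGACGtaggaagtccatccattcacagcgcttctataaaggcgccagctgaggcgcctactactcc
Fosb, chr7:19310046-19310165, minus strand: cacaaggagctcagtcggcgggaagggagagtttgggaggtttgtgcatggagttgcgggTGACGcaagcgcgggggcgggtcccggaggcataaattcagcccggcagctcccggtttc
Jun, chr4:95052223-95052342, minus strand: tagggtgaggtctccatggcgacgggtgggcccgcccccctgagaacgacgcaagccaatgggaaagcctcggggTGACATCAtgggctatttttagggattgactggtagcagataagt
Junb, chr8:84978749-84978868, minus strand: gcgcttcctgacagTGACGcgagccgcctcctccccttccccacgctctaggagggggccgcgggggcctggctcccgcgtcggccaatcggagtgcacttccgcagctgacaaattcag
Atf3, chr1:191183334-191183453, minus strand: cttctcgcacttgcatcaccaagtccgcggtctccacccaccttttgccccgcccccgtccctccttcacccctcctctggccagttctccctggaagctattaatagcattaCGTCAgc

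The CRE core began 66 bases before the start in Fos, 60 in Fosb, 106 in Junb and 7 in Atf3, and the TRE variant of Jun began 45 bases before it. A further CRE core lay 129 bases before the start in Fos, outside the stretch shown, and Batf held one 98 bases before its start, in a stretch that is not printed because 51 of its 120 bases lie in annotated exon. The RefSeq start used for Atf3 lies inside the GENCODE span of the gene, and the last 7 bases of its stretch, which hold the CRE core, are annotated as exon. The CRE core was searched for after the other motifs had been seen to be rare. It was in 5 of the 8 windows, where 20.8% of 32851 promoter windows of the same length held it, and TGACATCA (or TGATGTCA) was in 3.62% of them. The full CRE TGACGTCA (1.79% of all windows), the TRE TGAGTCA or TGACTCA (5.2%) and the CArG box of serum response factor (1.63%) had no match in these 8 windows. Sites more than 250 bases before the RefSeq start lay outside the windows and were not searched, so these genes may hold such elements farther upstream. Both strands were searched, and every full CRE also contains this core. A match is a run of letters only, and occupancy was not measured. Both genes with a difference and genes without one are among those printed. The windows of Fosl2 and Jund held none of these motifs, but neither window covers the GENCODE start of its gene. For Fosl2 all 120 bases before the RefSeq start lie in annotated exon. For Jund they end at 70697738 on chromosome 8, ahead of the GENCODE span, which begins at 70698949. The sequence at the GENCODE starts of Fosl2 and Jund was not searched.

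Of the 9 members, 4 were upregulated in the libraries labelled cKO at an edgeR adjusted p below 0.05, namely Fosl2, Junb, Fosb and Atf3, and 0 were downregulated. Over all 11488 genes tested, 4.47% were higher and 5.89% lower at this threshold. All 4 also had an absolute log2 fold change above 1, which, with an adjusted p below 0.05, 1.53% of all genes tested reached in that direction and 2.76% in either. At an unadjusted p below 0.05, 1 member was lower (Jund), which DESeq2 called too, while limma-voom called 0. All 9 members passed the filter on low counts, but Atf3 passed only through the libraries labelled cKO, since no control library reached the 0.483 CPM of the filter. A gene of this kind had to differ to be tested at all, and without it the count is 3. Under limma-voom and with the replicate number as a block 2 members were higher (Fosl2 and Junb), and without the library cKO 3 only 1 was (Fosl2). With DESeq2 and with no filter on low counts 6 were higher, and with RLE factors 5. The founding members Fos and Jun did not pass (log2 fold changes 0.34 and 0.48).

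**Figure D1:**
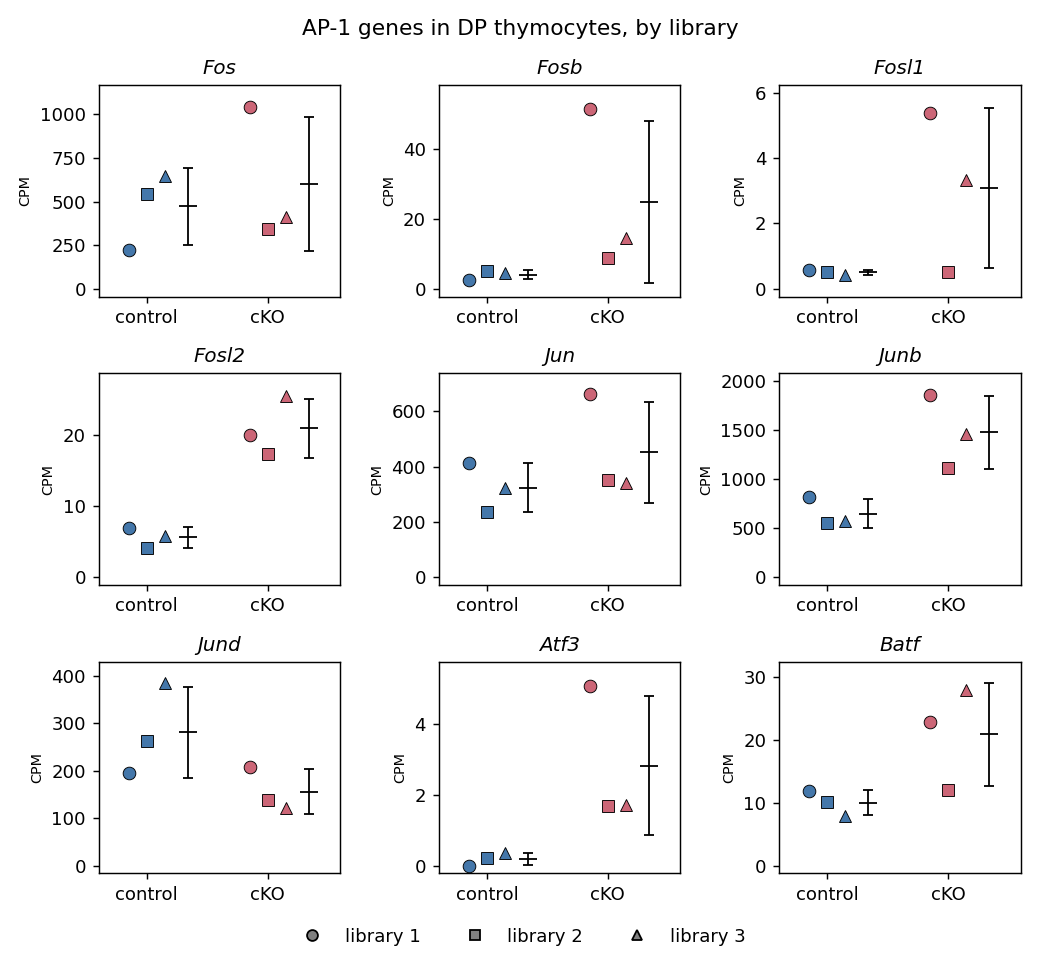
CPM (vertical axes, linear) of the 9 AP-1 genes in the 3 control libraries (blue) and the 3 libraries labelled cKO (red). The symbol shape gives the library number, which does not pair the groups, and the bar beside each group is the mean ± S.D. All libraries labelled cKO sit above all control libraries for Fosb, Fosl2, Junb, Atf3 and Batf, and the groups overlap for Fos, Fosl1, Jun and Jund.

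Within the Fos family, Fosl2 (Fra-2) differed with the least spread, while Fos itself varied as much within a genotype as between genotypes. Fosl2 (ENSMUSG00000029135, chromosome 5 from 32135801 to 32157842, plus strand) encodes a Fos-related protein without the strong activation domain of c-Fos. It had 6.90, 4.06 and 5.86 CPM in control libraries 1, 2 and 3, and 20.0, 17.3 and 25.5 CPM in the libraries labelled cKO 1, 2 and 3. The lowest library labelled cKO was thus above the highest control. The rise was 3.73-fold (95% interval 2.49 to 5.60), a log2 fold change of 1.90 (SE 0.26, adjusted p by edgeR = 0.00473). It held in all 6 fits that left out 1 library (adjusted p by edgeR from 0.00252 to 0.0406), and by p-value Fosl2 ranked 59 among the 11488 genes.

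Fosb (ENSMUSG00000003545, chromosome 7 from 19302696 to 19310051, minus strand) encodes FosB, an activating Fos protein that is nearly silent in resting cells. Its level was 2.59, 5.09 and 4.66 CPM in the control libraries and 51.4, 8.69 and 14.4 CPM in those labelled cKO. The groups did not overlap, but the library labelled cKO 1 stood far above cKO 2 and cKO 3. Its log2 fold change was 2.59 (SE 0.59, adjusted p by edgeR = 0.0231). The call was lost under limma-voom (adjusted p = 0.0752) and with the replicate block (edgeR, adjusted p = 0.0536). Without cKO 1 the log2 fold change was 1.49 and did not pass (adjusted p by edgeR = 0.0688), and the call was also lost without control 2, control 3 or cKO 3 (adjusted p by edgeR from 0.0555 to 0.0614).

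Fosl1 (Fra-1, ENSMUSG00000024912, chromosome 19 from 5447547 to 5455946, plus strand) is itself a known AP-1 target gene. It had 11, 10 and 11 counts in the control libraries and 118, 10 and 72 in those labelled cKO. The libraries cKO 1 and cKO 3, at 5.38 and 3.32 CPM, were therefore high, while cKO 2, at 0.520 CPM, lay within the control range of 0.427 to 0.570 CPM. The log2 fold change of 2.60 (SE 0.80) did not pass (adjusted p by edgeR = 0.0638), although it did with DESeq2 (adjusted p = 0.0119). On the other strand, Ccdc85b overlaps 32.9% of the span of Fosl1, and without a stated strand setting reads of both cannot be told apart there. Ccdc85b had 11.8 to 17.0 CPM over the 6 libraries, with all libraries labelled cKO below the controls.

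Fos (ENSMUSG00000021250, chromosome 12 from 85473890 to 85477273, plus strand), the prototype immediate early gene, was the most abundant gene of its family. Its level was 225, 545 and 649 CPM in the control libraries and 1040, 341 and 415 CPM in those labelled cKO. The highest library was 2.89 times the lowest among the controls and 3.05 times among those labelled cKO. The log2 fold change of 0.34 (95% interval -0.62 to 1.30, adjusted p by edgeR = 0.662) leaves room for differences in either direction, and without cKO 1 it turned to -0.33 (adjusted p by edgeR = 0.643).

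In the Jun family, Junb rose, Jun did not differ beyond its spread, and Jund was lower in most of the libraries labelled cKO. JunB can pair with Fos proteins like c-Jun does but is a weaker activator on its own and can oppose c-Jun, and JunD is the member expressed at a steady level in many resting cells. Junb (ENSMUSG00000052837, chromosome 8 from 84974484 to 84978718, minus strand) had 823, 549 and 577 CPM in the control libraries and 1857, 1116 and 1460 CPM in those labelled cKO. Every library labelled cKO was above every control. The rise was 2.28-fold (95% interval 1.67 to 3.10), a log2 fold change of 1.19 (SE 0.20, adjusted p by edgeR = 0.00872). The call was lost only without cKO 3 (log2 fold change 1.19, adjusted p by edgeR = 0.0523). Prdx2 overlaps 8.29% of the span of Junb on the other strand and had 192 to 264 CPM, with overlapping groups.

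Jun (ENSMUSG00000052684, chromosome 4 from 95049034 to 95052222, minus strand), which encodes c-Jun, had 412, 236 and 324 CPM in the control libraries and 662, 352 and 342 CPM in those labelled cKO. Apart from cKO 1, the libraries labelled cKO lay within the control range. Its log2 fold change was 0.48 (95% interval -0.11 to 1.07, adjusted p by edgeR = 0.270) and fell to 0.10 without cKO 1.

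Jund (ENSMUSG00000071076, chromosome 8 from 70698949 to 70700616, plus strand) had 195, 263 and 385 CPM in the control libraries and 209, 139 and 121 CPM in those labelled cKO. Only the libraries cKO 1 and control 1 crossed. The log2 fold change of -0.85 (SE 0.25) missed the threshold (adjusted p by edgeR = 0.0594) and passed with DESeq2 (adjusted p = 0.00487). The annotated antisense gene Gm11175 covers 55.1% of Jund and Junos covers 21.6% of Jun. Neither has a row in the deposited table, so antisense reads, if counted, would be part of the values of Jun and Jund.

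**Figure D2:**
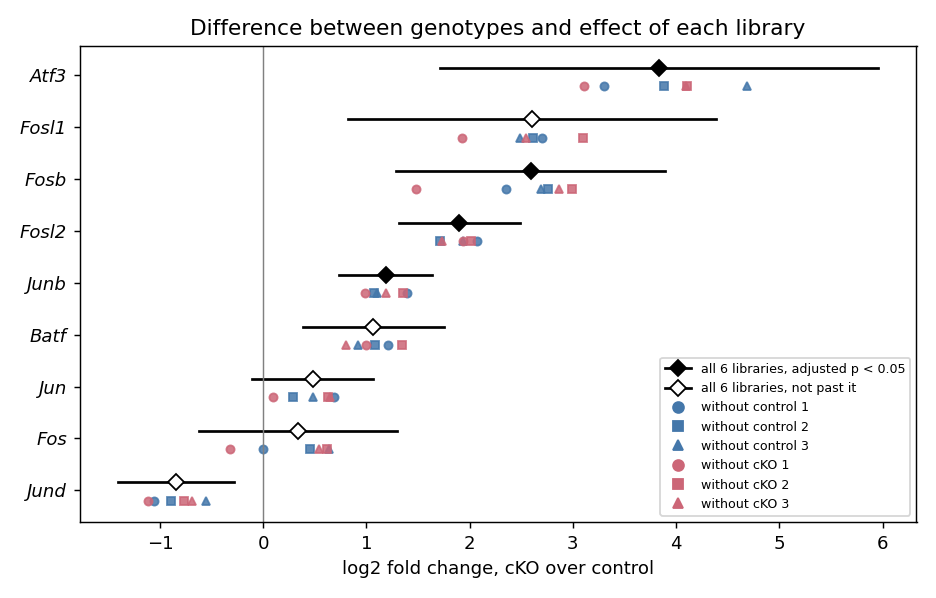
Log2 fold change, libraries labelled cKO over control (horizontal axis), for each of the 9 AP-1 genes. Diamonds with lines are the edgeR estimate and its 95% interval from all 6 libraries, filled where the adjusted p was below 0.05, and the smaller symbols give the estimate without 1 library. Fosl2 and Junb stay between 0.99 and 2.07 whichever library is left out, while Fos crosses 0 without cKO 1.

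Because these opposite estimates come from the same libraries, the balance of Junb and Jund was set out per library, a comparison chosen after the values were seen and given as a description. The ratio of their deposited FPKM was 3.89, 1.92 and 1.38 in control libraries 1, 2 and 3. In the libraries labelled cKO 1, 2 and 3 it was 8.19, 7.41 and 11.1. The groups were apart, and a ratio within a library does not depend on the scaling between libraries. Of the summed FPKM of the 3 Jun genes, Junb made up 56.8% ± 7.97 in the control libraries and 77.8% ± 3.47 in those labelled cKO, Jund 27.2% ± 9.58 and 8.95% ± 1.48, and Jun 16.0% ± 2.33 and 13.3% ± 2.22 (mean ± S.D., n = 3 each). The share of Jun was thus close in both groups while those of Junb and Jund were apart. The 3 Jun genes, chosen as 1 gene family and so not independent draws from all genes, also share a structure. Each has 1 exon in its longest protein-coding transcript, as 2.96% of 11367 tested genes do, while the Fos family genes and Atf3 have 4 exons each and Batf has 3.

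**Figure D3:**
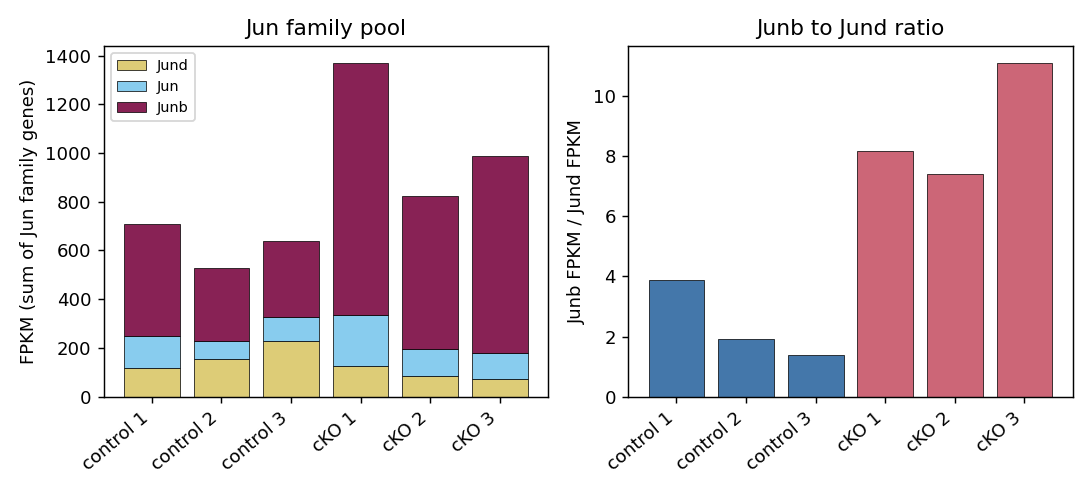
Left, deposited FPKM of Jund, Jun and Junb stacked for each library (linear axis from 0), so that the bar height is the Jun family sum. Right, ratio of Junb to Jund FPKM in each library, which was 1.38 to 3.89 in the control libraries (blue) and 7.41 to 11.1 in those labelled cKO (red).

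Atf3 and Batf encode bZIP proteins that pair with Jun. Atf3 (ENSMUSG00000026628, chromosome 1 from 191170296 to 191218039, minus strand) is a stress-induced member that mostly acts as a repressor as a homodimer, and Batf (ENSMUSG00000034266, chromosome 12 from 85686669 to 85709087, plus strand) lacks an activation domain and works with Jun and IRF4 in T cells. Atf3 had 0, 4 and 9 counts in the control libraries and 111, 32 and 37 in those labelled cKO. The count of 0 in control 1 allows a level of up to 0.156 CPM (3 counts, counting error only). The level was 0.185 ± 0.176 CPM in the control libraries and 2.81 ± 1.95 CPM in those labelled cKO (mean ± S.D. of 3 libraries each). On the log2 scale the rise was 3.84 (SE 0.96, adjusted p by edgeR = 0.0330). So few control counts leave a 95% interval of 3.27-fold to 62.3-fold. The call held in 1 of the 6 fits without 1 library, that without control 1, and the edgeR adjusted p lay between 0.0514 and 0.140 in the others. It was also lost under limma-voom (adjusted p = 0.0541) and with the replicate block (edgeR, adjusted p = 0.0703).

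Batf had 11.9, 10.2 and 7.92 CPM in the control libraries and 22.8, 11.97 and 27.9 CPM in those labelled cKO. The groups did not overlap, but cKO 2 was next to control 1. The log2 fold change of 1.07 (SE 0.31) just missed the threshold (adjusted p by edgeR = 0.0520) and passed with DESeq2 (adjusted p = 0.00859) and without cKO 2 (1.34, adjusted p by edgeR = 0.0221).

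Levels of different genes were compared in FPKM, which takes gene length into account. In the control libraries the order was Junb (357 ± 88.8), Fos (222 ± 102), Jund (167 ± 55.0), Jun (101 ± 28.8), Batf (10.4 ± 2.21), Fosb (1.10 ± 0.329), Fosl2 (0.853 ± 0.231), Fosl1 (0.367 ± 0.108) and Atf3 (0.0967 ± 0.0907 FPKM, mean ± S.D., n = 3). Junb, Fos, Jund and Jun overlapped with their neighbours in this order, as did Fosb with Fosl2, while Jun, Batf and Fosb were separated from each other. In the libraries labelled cKO, Junb (822 ± 206 FPKM) stood apart from Fos (286 ± 184), and Jun (143 ± 57.6) came before Jund (94.4 ± 28.4), although these last ranges overlapped. Batf (21.99 ± 8.44), Fosb (6.79 ± 6.10), Fosl2 (3.22 ± 0.612), Fosl1 (1.65 ± 1.32) and Atf3 (1.43 ± 1.002) followed, each overlapping with the next. The genes with the highest fold changes were thus the scarce members. Fos still made up between 95.2% and 96.8% of the summed FPKM of the Fos family in the libraries labelled cKO, against 98.1% to 99.2% in the controls. The sum of the Fos family, divided by that of the Jun family, was 0.155, 0.487 and 0.477 in the control libraries and 0.377, 0.206 and 0.209 in those labelled cKO, so that control 1 and cKO 1 each differed from the other libraries of their group.

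The library labelled cKO 1 had the highest CPM of all 6 libraries for 6 of the 9 members (Fos, Fosb, Fosl1, Jun, Junb and Atf3), where it was the highest for 15.8% of all genes tested. The library cKO 3 was the highest for Fosl2 and Batf, where it was the highest for 19% of all genes tested. For Jund it was control 3. All 3 libraries labelled cKO were above all controls for 5 members, where this held for 15.7% of all genes tested. The profiles most like Fos and Jun were found from log2 CPM centred on each gene's mean over the 6 libraries, among 9195 other tested genes with a mean of at least 5 CPM. Zfp36, an immediate early gene whose product speeds the decay of short-lived mRNAs, was closest to Jun, with a root mean square difference of 0.129 (log2). It had 333, 198 and 239 CPM in the control libraries and 495, 223 and 255 CPM in those labelled cKO, the same order within each group except for cKO 2 and cKO 3. Prkar2a (0.154) and Map1lc3a (0.163) came next. For Fos these were Gm2000 (0.183), Eef1akmt4 (0.252) and 3110082I17Rik (0.270).

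The genes around AP-1 did not move as a block. Of 18 other bZIP genes that pair or compete with AP-1 (small and large Maf, Bach, ATF2-like, JDP and BATF genes), 13 were tested. Their median was -0.01 (log2), against -0.0017 for all genes tested. By edgeR 0 of them passed the adjusted threshold, while 3 higher and 2 lower had an unadjusted p below 0.05, DESeq2 called 1 in each direction and limma-voom 0. Jdp2, a repressor that pairs with Jun, had 1.92, 2.004 and 4.23 CPM in the control libraries and 8.58, 4.53 and 8.95 CPM in those labelled cKO (log2 fold change 1.43, adjusted p by edgeR = 0.0605). Of 28 tested genes for upstream kinases and factors (the JNK, ERK and p38 routes, the ternary complex factors, MRTF, MEF2 and CREB), 1 rose and 1 fell, with a median of -0.10, a share no higher than over all genes tested (4.47% and 5.89%). Map2k3, a kinase for p38, had a log2 fold change of 0.47 (adjusted p by edgeR = 0.0400). Elk3, a ternary complex factor that represses Fos in the absence of signal, fell from 33.0, 33.7 and 36.7 CPM to 20.5, 21.2 and 12.9 CPM (log2 fold change -0.92, SE 0.21, adjusted p by edgeR = 0.0223).

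Among 9 genes for the turnover of AP-1 proteins, 1 rose and 3 fell (median -0.27), where 4.47% and 5.89% of all genes tested did. Cop1, the ubiquitin ligase that with DET1 and CUL4A marks c-Jun for degradation, had 48.1, 71.5 and 73.7 CPM in the control libraries and 37.4, 38.5 and 34.9 CPM in those labelled cKO (log2 fold change -0.80, SE 0.18, adjusted p by edgeR = 0.0205). Cul4a, the scaffold of that complex, also fell (-0.64, adjusted p by edgeR = 0.0205). The pseudokinases Trib1 and Trib2, which bind COP1 and direct it to substrates, moved apart, with log2 fold changes of 0.87 for Trib1 and -0.90 for Trib2 (adjusted p by edgeR = 0.0142 and 0.00983). These are mRNA levels, and no AP-1 protein was measured here.

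Of 16 textbook AP-1 target genes, 8 had enough counts to be tested, with a median log2 fold change of 0.39. Of the 8, 1 rose and 0 fell, where 4.47% and 5.89% of all genes tested did. Cd69, an early activation antigen, rose from 201, 159 and 119 CPM to 680, 187 and 460 CPM (log2 fold change 1.47, adjusted p by edgeR = 0.0344), with cKO 2 within the control range. This is mRNA, while by flow cytometry the paper reports CD69 protein as unaltered in DP and SP cells of Paxbp1 cKO mice. Plaur and Ccnd1 had 1.51 and 1.20 and did not pass (adjusted p by edgeR = 0.0534 and 0.100). Of 18 other immediate early genes, 16 were tested, 6 rose and 1 fell, with a median of 0.49 (over all genes tested, 4.47% rose and 5.89% fell). Nr4a1, a nuclear receptor induced by T cell receptor signals, had 607, 373 and 504 CPM in the control libraries and 2140, 870 and 1559 CPM in those labelled cKO (log2 fold change 1.62, SE 0.29, adjusted p by edgeR = 0.00930). Its order among the libraries labelled cKO was that of Junb. Nr4a2, Nr4a3 and Gadd45b had log2 fold changes between 2.25 and 2.34 (adjusted p by edgeR from 0.0105 to 0.0183), while Egr1, a gene that responds to many of the signals that induce Fos, had 0.20 (adjusted p by edgeR = 0.413). Klf6 was the 1 that fell (-0.56, adjusted p by edgeR = 0.0432), named here after its values were seen. So were Jdp2, Plaur, Ccnd1, Tnf, Fasl, Vim, Cd44, Hmox1 and Egr1.

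**Figure D4:**
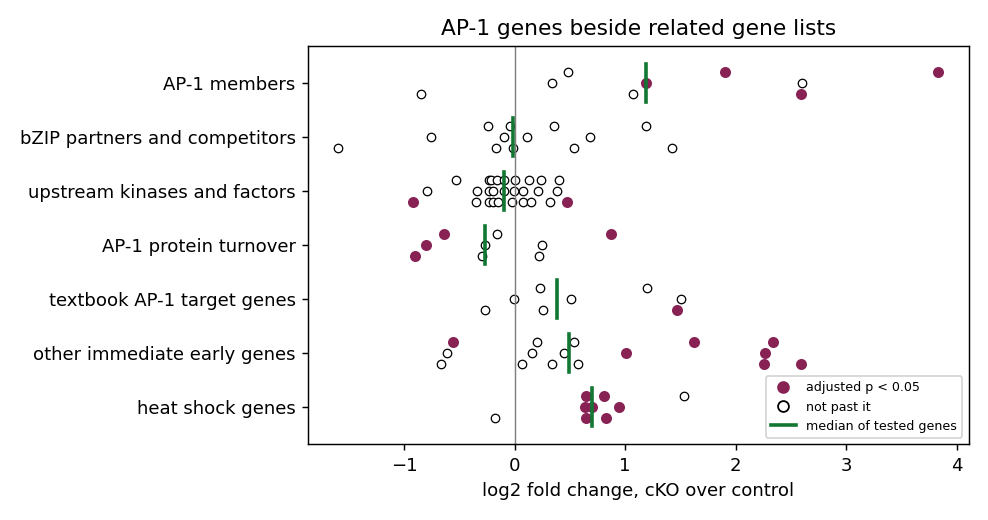
Log2 fold change, libraries labelled cKO over control (horizontal axis), of each tested gene in the AP-1 members and in 6 lists of related genes. Filled points had an edgeR adjusted p below 0.05 and the green bar is the median of the tested genes of a list, which was 1.19 for the AP-1 members and -0.01 for their bZIP partners and competitors.

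Several macrophage markers and most of the tested heat shock genes were higher in the libraries labelled cKO. Of 11 heat shock genes, 9 were tested and 7 rose, as did 4.47% of all genes tested. Their median was 0.70, with a summed level of 4624 to 5361 CPM in the control libraries and 7412 to 8482 CPM in those labelled cKO. Hspa8, Hspd1, Hsph1 and Hsp90ab1 had log2 fold changes between 0.64 and 0.94 (adjusted p by edgeR from 0.00408 to 0.0113). Of these, all but Hspd1 were highest in cKO 3. Hspa1a (log2 fold change 1.53, adjusted p by edgeR = 0.0635) and Dnajb1 (-0.18, adjusted p by edgeR = 0.327) did not pass. Hspa1b and Hspb1 had too few counts to be tested, and these genes were named after their values were seen. Of 20 macrophage markers, 14 were tested, 6 rose and 0 fell, where 4.47% and 5.89% of all genes tested did. At an unadjusted p below 0.05, 1 was lower, Itgam (log2 fold change -1.18, adjusted p by edgeR = 0.109), and 0 with DESeq2 and limma-voom. Of the 14, 11 had log2 fold changes above 0 and 3 below. Csf1r, Axl and Hmox1 had values between -0.27 and 0.27 (adjusted p by edgeR from 0.637 to 0.837). The sum of the 20 markers was 406 to 463 CPM in the control libraries and 426 to 448 CPM in those labelled cKO. Most of it came from Ctsb, and without Ctsb it was 25.5 to 48.5 and 72.9 to 96.5 CPM. Adgre1 (F4/80) and Timd4 were at 0 in every control library and above 0 in every library labelled cKO, and Mertk and Marco were at 0 throughout. Of the 6 that rose, Adgre1 passed the filter on low counts only through the libraries labelled cKO, so it had to differ to be tested. Among the controls, Slc40a1 and Vcam1 reached the filter in control 1 alone. Macrophages are known to express AP-1 genes, and the part of such cells or of stress in the values above was not tested. The heat shock sum, the macrophage sum without Ctsb, Fosl2 and Batf were all highest in cKO 3, as were 19% of all genes tested. For 6 of the 9 members, Junb, Fosb and Atf3 among them, the highest library was cKO 1.

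Of the other markers, those of neutrophils were nearly absent (at most 0.312 CPM in sum). The erythroid and thymic epithelial lists had 0 genes past the threshold and 0 at an unadjusted p below 0.05, with edgeR, and 0 with DESeq2 and limma-voom. The dendritic cell list had 0 and 1 (higher), and 0 with the other tools. Over all genes tested, 4.47% rose and 5.89% fell. The B cell list had 1 gene that fell and the mature SP list 1 that rose, Cd69. The NK and innate T list had 1 gene that rose, Gzma (log2 fold change 1.41, adjusted p by edgeR = 0.00825), and the list of DN and ISP genes had 2 that rose, Hes1 and Il2ra, while its other 5 tested genes had log2 fold changes below 0, of which 0 passed by edgeR, DESeq2 or limma-voom and 2 had an unadjusted p below 0.05 (Tcf7 at -0.27 and Gata3 at -0.31). The part of these cells in the AP-1 values was not tested. Rag1 and the genes named from these marker lists were chosen after their values were seen.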

How the data were processed

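The authors deposited 1 table with whole-number counts per gene and library, which carry no normalization, and FPKM per gene and library. Per the submitters' processing notes, fastp 0.18.0, Bowtie2 2.2.8, HISAT2, StringTie and RSEM were used. Since RSEM is named, the counts may be estimates that the authors rounded. For genome build, annotation and strand setting: not given in the sources used here. cDNA was pre-amplified before sequencing, and the paper and the labels name different library kits. The authors' mean FPKM, log2 ratio, p-value and FDR columns in the deposited table were not used.

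Counts were tested in R 4.3.3 with edgeR 4.0.16: filterByExpr (minimum count 10, minimum total 15), TMM, and a quasi-likelihood test on genotype alone, with Benjamini-Hochberg adjusted p-values over all 11488 genes tested. Intervals are 95% from the same fit. FPKM were used only to compare levels between genes. Libraries were grouped by their titles, and no 2 libraries of a group were duplicates (chi-square per degree of freedom of counts 19.1 to 64.9). The scripts were tested on simulated data.

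The 9 members and all gene lists were chosen with earlier results of these data known. Genes named from the lists are those with an edgeR adjusted p below 0.05, at most the 4 with the smallest p per list, unless said otherwise. Alternatives were DESeq2 1.42.0, RLE factors, total counts alone, no filter, a mean of at least 5 CPM, limma-voom (limma 3.58.1), the replicate number as a block and each library left out.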

Additional observations from a re-analysis of the deposited data

How the results depend on the processing

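Under limma-voom and under the replicate block, 2 members were higher in the libraries labelled cKO (Fosl2 and Junb), and 2 passed with the fold threshold as well. With DESeq2 and with no filter on low counts 6 were higher, and with RLE factors 5. The replicate numbers did not pair the libraries (correlation of same-numbered deviations 0.047, 0.037 and -0.031). The count of lower members was 1 (Jund) with DESeq2, without a filter on low counts and with a mean of at least 5 CPM. With 1 library left out in turn, 1 to 5 members were higher, 0 to 1 lower and 1 to 6 past the fold threshold. Only 1 was higher without cKO 3, and 2 without control 2, control 3 or cKO 1. Over all genes, 1912 passed with DESeq2, and 120 (without cKO 3) to 2030 (without control 1) passed with 1 library left out. The log2 fold change of Fos was -0.33 without cKO 1 and up to 0.63 (without control 3). The cause of these changes was not tested. RLE factors and total counts alone turned no member's direction. Atf3 and Fosl1 were not tested at a mean of at least 5 CPM. Their control counts of at most 11 limit the precision.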
